A study of Drosophila melanogaster with 2 samples.

Results

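Peaks of maf-S-eGFP were mapped in Drosophila melanogaster embryos, and the peaks described here lie inside genes but away from any promoter. A peak was taken when its summit, the position of highest enrichment named by the authors, fell within an annotated gene, in no exon, and over 2000 bp from the nearest annotated start site of any gene. Of the 3205 peaks in the authors' thresholded list on dm6, 504 met this rule (15.7%, exact binomial 95% interval 14.5 to 17.0). They are called far intronic peaks. The other peaks were 1889 promoter peaks (summit within 500 bp of a start site), 443 near intronic peaks (intronic, over 500 and up to 2000 bp from a start site), 172 far intergenic peaks (in no gene and over 2000 bp from any start site) and 197 others. The series held a single group of 2 biological replicates, numbered 2 and 3. Both were whole embryos of mixed sex, 0 to 24 h old, of strain maf-S-GFP, a line that stably expresses maf-S with GFP at its C-terminus, and chromatin was precipitated with an antibody against GFP. All tissues and stages of embryogenesis were pooled in each library, so a peak cannot be assigned to a cell type, and a weak peak in many cells and a strong one in few cannot be told apart. No untagged or mock-precipitated sample was analysed here. All peaks come from the same 2 libraries, so intervals cover counting error over peaks only. The depth of the libraries is unknown here.

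The small Maf proteins are basic leucine zipper factors without an activation domain of their own. They bind DNA as dimers, with themselves or with larger partners such as the Cap'n'collar protein Cnc, and the Cnc-Maf dimer reads a sequence that extends the letters TGAC by a GC. In flies, as in other animals, introns hold many of the enhancers that switch genes on in particular tissues, and first introns of long developmental genes are the classic place to find them. An intronic peak may act on its host gene, on a neighbour or on neither, and these data do not measure which.

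The sequences at the strongest far intronic peaks and at those holding the sequences tested below show what the summits look like. Each is the plus strand of the Release 6 genome (the assembly of dm6, from RefSeq), 5′ to 3′. The first group is 50 bp to each side of the summit, for 4 of the 5 strongest peaks on X, 2L, 3L, 3R and 4. Also shown are, on those arms, the strongest peaks with a Cnc-Maf, a motif 1 or a CTCF-like sequence within these 50 bp, and the strongest with the 8-bp words CACTGAGA and GAGAAAAA there. Capitals mark any of the 6 words with the smallest p over flanks in an open search (AGTGTA and CACTGA, the 2 words ACAGTG and ACACTG, and the 2 words GTGCAC and CAGTGC, on either strand). In CG32486 capitals mark CTATTTA instead, in CG46467 the Cnc-Maf sequence, in lncRNA:CR44357 AGGTGGC, and in hth and mew also motif 1 and the 8-bp words.
Tlk intron, X:3742197-3742297: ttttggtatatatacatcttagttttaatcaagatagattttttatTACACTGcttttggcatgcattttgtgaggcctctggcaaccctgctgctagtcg
CG32486 intron, 3L:3060733-3060833: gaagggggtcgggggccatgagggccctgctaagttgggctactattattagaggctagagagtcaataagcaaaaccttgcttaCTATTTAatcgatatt
Raf intron, X:2297687-2297787: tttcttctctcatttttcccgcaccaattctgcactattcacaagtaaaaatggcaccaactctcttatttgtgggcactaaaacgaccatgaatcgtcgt
Su(Tpl) intron, 3L:19903227-19903327: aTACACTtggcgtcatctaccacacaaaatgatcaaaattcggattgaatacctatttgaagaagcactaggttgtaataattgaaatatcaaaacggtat
CG46467 intron, 3R:9884530-9884630: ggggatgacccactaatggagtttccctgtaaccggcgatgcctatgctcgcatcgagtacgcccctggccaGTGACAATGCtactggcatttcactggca
hth intron, 3R:10564375-10564475: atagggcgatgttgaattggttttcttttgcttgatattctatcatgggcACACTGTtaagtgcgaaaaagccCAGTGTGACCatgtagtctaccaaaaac
lncRNA:CR44357 intron, X:7242078-7242178: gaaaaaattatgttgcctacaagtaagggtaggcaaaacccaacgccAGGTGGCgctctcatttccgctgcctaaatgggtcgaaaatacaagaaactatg
mew intron, X:13234202-13234302: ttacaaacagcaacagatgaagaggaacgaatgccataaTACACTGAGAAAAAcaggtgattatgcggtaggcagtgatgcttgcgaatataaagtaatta

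The second group shows windows of 100 bp to each side, with the same capitals, for a peak that held 5 of the 6 words and for the 3 strongest that held 4, all chosen among peaks on X, 2L, 3L, 3R and 4. The Gug peak is also the fourth strongest far intronic peak, and in it the words stand near both ends of the window with an A+T-rich stretch between them.
CG31871 intron, 2L:10665740-10665940: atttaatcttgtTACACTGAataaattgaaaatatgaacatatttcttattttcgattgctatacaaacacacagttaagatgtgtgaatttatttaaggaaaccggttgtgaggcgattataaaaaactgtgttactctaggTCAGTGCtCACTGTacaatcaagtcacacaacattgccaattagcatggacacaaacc
Gug intron, 3L:8458236-8458436: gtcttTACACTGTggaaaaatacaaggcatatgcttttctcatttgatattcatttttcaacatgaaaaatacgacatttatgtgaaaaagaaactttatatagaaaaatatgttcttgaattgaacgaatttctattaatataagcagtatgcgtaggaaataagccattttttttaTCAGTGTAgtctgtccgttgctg
CG34417 intron, X:6549737-6549937: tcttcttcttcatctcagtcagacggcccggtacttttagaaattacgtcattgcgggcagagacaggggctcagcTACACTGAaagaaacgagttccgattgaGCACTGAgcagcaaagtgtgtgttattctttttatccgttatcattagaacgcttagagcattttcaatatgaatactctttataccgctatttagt
eff intron, 3R:14738587-14738787: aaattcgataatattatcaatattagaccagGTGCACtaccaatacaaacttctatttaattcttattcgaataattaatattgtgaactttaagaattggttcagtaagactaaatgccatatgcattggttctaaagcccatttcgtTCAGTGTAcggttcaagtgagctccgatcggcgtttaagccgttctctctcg

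Signal at far intronic peaks was modest, and few of the strongest sites of the list were among them. Signal is the value per peak given by the authors, and its scale is not assumed equal between lists. In the thresholded list it ran from 72.3 to 677 at far intronic peaks, with a median of 103 and quartiles of 84.5 and 139. The median was 114 at promoter peaks, 107 at near intronic peaks and 96.1 at far intergenic peaks. Far intronic peaks made up 3 of the 100 strongest peaks (3%), 40 of ranks 101 to 500 (10%), 73 of ranks 501 to 1000 (14.6%), 187 of ranks 1001 to 2000 (18.7%) and 201 of the remaining 1205 (16.7%). Of the 504, 219 (43.5%) were above the list's median of 109, against 53.1% of promoter peaks, an odds ratio of 0.677 (95% interval 0.553 to 0.830), with a p of 0.000448 by a two-sided Fisher's exact test adjusted over 4 comparisons, called the Fisher adjusted p in what follows. Against all 2701 other peaks (51.2% above the median) the odds ratio was 0.732 (0.602 to 0.891, Fisher adjusted p = 0.00319). That call was lost when replicate 2 was left out (odds ratio 0.829, Fisher adjusted p = 0.0554) or with protein-coding genes only (0.805, Fisher adjusted p = 0.0508). The differences from near intronic peaks (48.5% above the median, odds ratio 0.815, 0.625 to 1.06, Fisher adjusted p = 0.177) and from far intergenic peaks (40.7%, odds ratio 1.12, 0.777 to 1.62, Fisher adjusted p = 0.534) were not past the threshold. The first passed it when replicate 2 was left out (odds ratio 0.713) and when replicate 3 was (0.676), and the second when replicate 2 was (1.52, Fisher adjusted p = 0.0301) but not when replicate 3 was (0.936).

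The authors' pooled list before thresholding, which ends at 30000 peaks, gave the classes at lower ranks. Far intronic summits made up 15.6% of its first 3000 ranks, 25.3% of ranks 15001 to 18000 and 26.6% of the last 3000. Promoter summits made up 59.4%, 25.7% and 20.6% of the same bands. The sequence that meets the rule is 30.9% of the 6 chromosome arms, so the far intronic share stayed below that figure in every band.

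**Figure D1:**
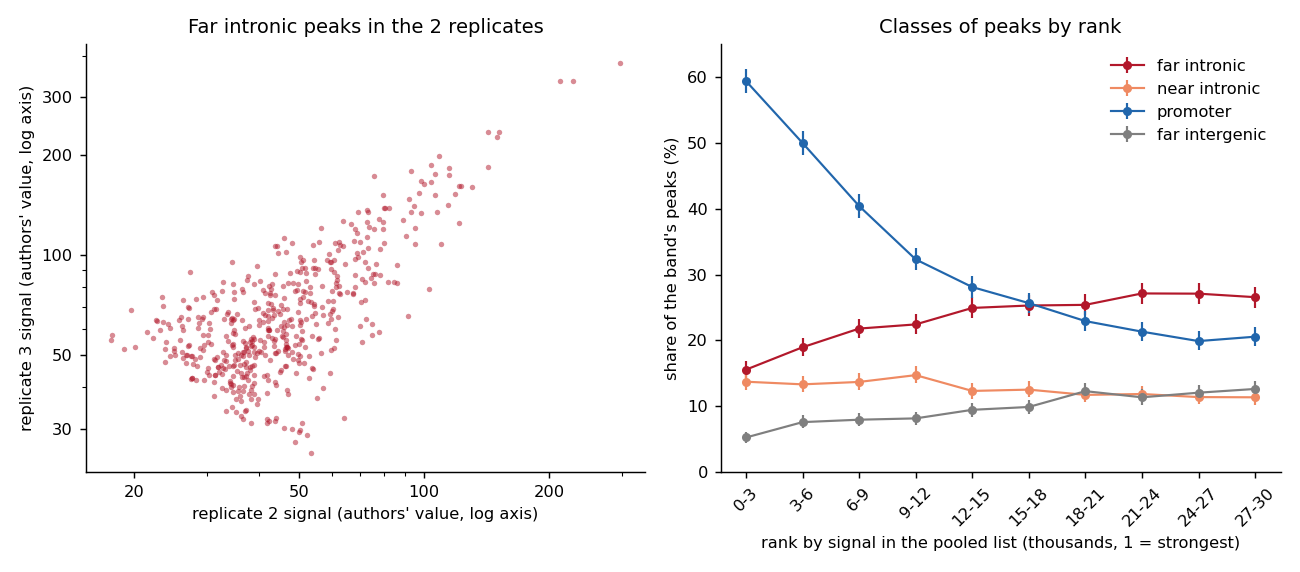
Left, the signal of each far intronic peak in replicate 2 and replicate 3, both on log axes, one point per peak matched in both lists; 3 peaks stand apart at the upper right. Right, the share of 4 classes of peaks in bands of 3000 ranks of the pooled list, with exact 95% intervals; the far intronic share goes from 15.6% in the first band to 26.6% in the last while the promoter share goes from 59.4% to 20.6%.

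Nearly all of these sites had a match in both replicate lists. Matching by summits within 150 bp, 503 of the 504 had a peak in replicate 2 and 503 in replicate 3. By its name, the thresholded list was selected by IDR, a measure of agreement between replicates. The replicate lists, named as peaks and background, each reach 30000 peaks. Near-complete matching was thus largely fixed by the choice of lists and is no independent check. Of the 504, 408 (81.0%, 77.2 to 84.3) were among the 3205 strongest peaks of replicate 2 and 449 (89.1%, 86.0 to 91.7) among those of replicate 3. For 357 (70.8%, 66.7 to 74.8) both replicates ranked the site that high, and the share was 73.8% for all other peaks. Promoter peaks were in the top of replicate 2 at 85.9%, which gave far intronic peaks an odds ratio of 0.697 (0.535 to 0.911, Fisher adjusted p = 0.0618 over 8 comparisons). This difference passed the threshold when summits had to lie within 75 bp (odds ratio 0.697, Fisher adjusted p = 0.0252) or 300 bp (0.593, Fisher adjusted p = 0.00129). Against all other peaks the odds ratio was 0.796 (0.620 to 1.03, Fisher adjusted p = 0.303). Both passed the threshold when the list was made without replicate 2, from the 3205 strongest peaks of replicate 3 (0.663 against promoter peaks, Fisher adjusted p = 0.000802, and 0.752 against all others, Fisher adjusted p = 0.0135). In replicate 3 the promoter share was 87.7% (odds ratio 1.14, 0.832 to 1.59, Fisher adjusted p = 0.881). Across the 502 far intronic peaks matched in both lists, log2 signal in the replicates had a Pearson correlation of 0.692, and across 1857 matched promoter peaks 0.827. All points come from the same 2 libraries, and far intronic peaks also had the narrower range of signal.

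The 15 strongest far intronic peaks lay in 15 different genes. The strongest was in the first intron of Tlk, which encodes the Tousled-like kinase of chromatin assembly (X:3742057-3742374, 2350 bp from a start site). Its signal was 677, rank 31 of the list, with 297 (rank 28) in replicate 2 and 379 (rank 37) in replicate 3. CG32486 followed (3L:3060668-3060944, signal 566, rank 50, with 229 in replicate 2 and 335 in replicate 3). The third was in Raf, the MAP kinase kinase kinase downstream of receptor tyrosine kinases (X:2297576-2297853, signal 543, rank 55), with 212 in replicate 2 and 335 in replicate 3. These 3 stood apart: the next, in the Atrophin corepressor gene Gug (3L:8458198-8458483), had a signal of 386 and rank 118. Su(Tpl), which encodes the ELL elongation factor, had 380 (3L:19903156-19903367), at a summit that also lies in the span of Mi-2. CG46321 had 378, and its summit also lies in the span of Hr3, a nuclear receptor of the ecdysone response that held a second far intronic peak, of signal 159.

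The grouping that follows was made after the hosts were seen, and its share among all hosts was not counted. Of these 15 hosts, Raf, S and aos act in signalling from the epidermal growth factor receptor. The peaks of the other two were in S (Star), needed to process the ligand Spitz (2L:1072297-1072468, signal 293, with 131 in replicate 2 and 160 in replicate 3), and aos (argos), a secreted inhibitor of the receptor (3L:16480462-16480670, signal 284, with 107 in replicate 2 and 176 in replicate 3). Hr4, a nuclear receptor of the ecdysone response, had 310 (X:1951818-1952013). JIL-1, the histone H3 kinase of interphase chromatin, had 282, the dystrophin gene Dys 287, in its intron 15, and Lrch, a protein of the cell cortex, 288. Pits (329), CG34417 (298) and CG12769 (291) completed the 15. All 15 were strong in both replicates, with ranks of 28 to 344 in replicate 2 and 37 to 251 in replicate 3.

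Several hosts held a row of far intronic peaks. By gene span, 347 genes held at least 1, of which 238 held 1, 66 held 2 and 43 held 3 or more. sbb (scribbler), a nuclear corepressor, held 9, with signals from 75.1 to 219. ush (u-shaped), the cofactor that binds GATA factors, held 6 (2L:476220-540560), with signals of 197, 188, 109, 108, 98.9 and 79.6. The strongest peak of the whole list, a near intronic one of signal 1703, lay in the same gene. Hr4 also held 6, with 310, 270, 219, 98.9, 96.8 and 92.6. shn (schnurri), the zinc finger corepressor of Dpp signalling, held 6 with signals from 75.4 to 154. kirre, the adhesion receptor of muscle founder cells, held 6 in a span of 394149 bp, with signals from 74.2 to 209. Raf held 5, all in its second intron, with 543, 259, 211, 148 and 146. apt (apontic, signals 80.4 to 179), tara (taranis, 72.8 to 140), Eip75B, the nuclear receptor gene E75 (111 to 126), and lncRNA:CR44357 also held 5 each. Of the 504 peaks, 130 (25.8%) had another far intronic peak within 5 kb and 36 (7.14%) within 1 kb.

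Far intronic peaks crowded towards the near end of the sequence open to them. Eligible sequence, all bases that meet the rule, came to 41.4 Mb, and the peaks had a density of 12.2 per Mb of it. The density was 22.9 per Mb at 2 to 3 kb from a start site, 19.0 at 3 to 5 kb, 13.2 at 5 to 10 kb, 6.65 at 10 to 20 kb and 3.59 beyond 20 kb. The median distance of the peaks was 4694.5 bp, against 7989 bp for 20743 points placed every 2000 bp over eligible sequence. Median signal changed little over the same range, from 105 at 2 to 3 kb to 95.3 beyond 20 kb. The nearest start site belonged to the host gene at 340 of the 504 peaks. Peaks lay on both sides of the limit of 2000 bp. Just inside it were peaks in lncRNA:CR44320 (2017 bp, signal 236), hiw (2018 bp, 165) and bol (2028 bp, 83.5), and just outside it intronic peaks in oys (1996 bp, 98.0), CG3764 (1996 bp, 204) and FASN1 (1992 bp, 89.1).

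First introns held more than their share. Of the 504 summits, 287 lay in the first intron of a host transcript (56.9%, 52.5 to 61.3), against 31.1% of the points over eligible sequence. Since first introns lie nearer to start sites, the same was read by distance. At 2 to 3 kb the share was 64.8% (55.6 to 73.2) of peaks against 47.5% of points, at 3 to 5 kb 63.5% (55.2 to 71.3) against 43.1%, at 5 to 10 kb 52.1% (43.6 to 60.4) against 36.2%, and beyond 10 kb 43.2% (32.7 to 54.2) against 17.3%. In each range the exact interval of the peaks lay above the share of the points. The second intron held 147 peaks (29.2%, 25.2 to 33.3), against 29.3% of points. The median span of the host gene was 35954.5 bp for peaks and 56120 bp for points, which weight a gene by its eligible length.

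**Figure D2:**
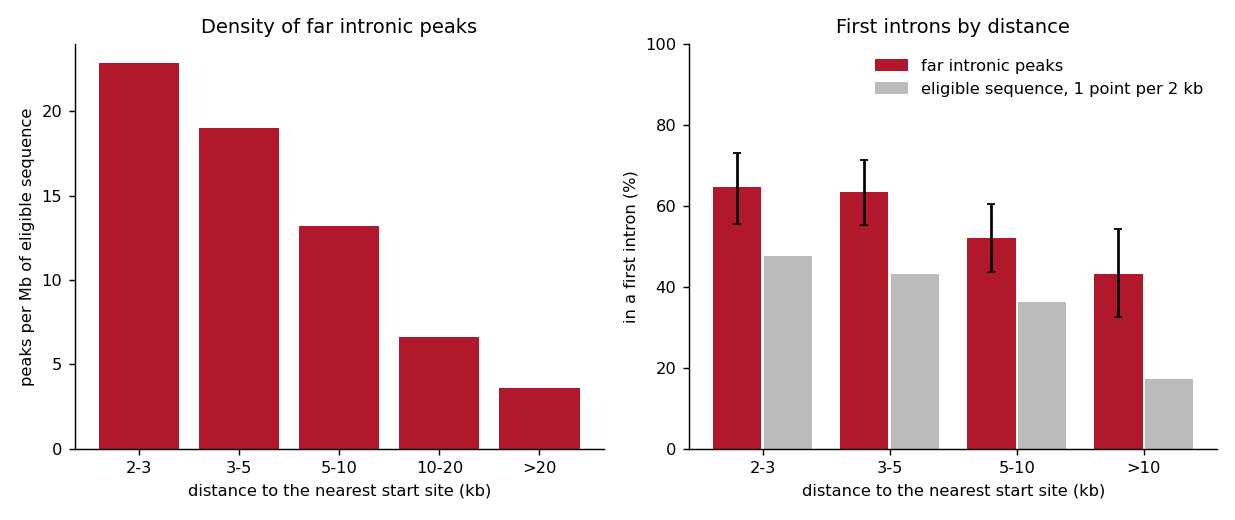
Left, far intronic peaks per Mb of eligible sequence by distance from the nearest start site; the bars go from 22.9 at 2 to 3 kb to 3.59 beyond 20 kb. Right, the share of far intronic peaks in a first intron (red, exact 95% interval) beside that of points every 2 kb over eligible sequence (grey), by distance; the red bar is the higher in all 4 ranges.

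The X chromosome carried 123 of the 504 peaks (24.4%, 20.7 to 28.4) and 19.3% of eligible sequence, a density of 15.4 per Mb. The autosomal arms had 13.4 (2L), 13.2 (2R), 10.5 (3R) and 10.1 per Mb (3L). Chromosome 4 had 0 in 0.445 Mb, which allows up to 6.74 per Mb. Summits lay in soft-masked sequence, the repeats and low-complexity runs of the genome file, at 89 peaks (17.7%, 14.4 to 21.3), against 24.3% of points.

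Host genes also had promoter peaks more often than other genes with eligible introns. Of the 335 protein-coding hosts, 122 (36.4%, 31.3 to 41.8) had a thresholded summit within 500 bp of one of their own start sites, against 798 of 3881 (20.6%, 19.3 to 21.9) other protein-coding genes with eligible sequence. The same order held in each class of eligible length: 38.5% against 22.1% up to 5 kb, 33.3% against 17.8% from 5 to 20 kb, 40.2% against 16.3% from 20 to 50 kb, and 35.6% against 9.80% beyond 50 kb. No test was made of these shares, since neighbouring genes share peaks.

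Genes of developmental signalling were often hosts. Of all 4216 protein-coding genes with eligible sequence, 335 (7.95%) were hosts, with 12.2 peaks per Mb. Listed genes are longer than that background, with a median of 13.6 kb of eligible sequence in the signalling list and 1.64 kb over all coding genes, so the density is given beside each count. Of 35 genes of the Notch, EGFR, Wnt, Hedgehog, Dpp, JAK-STAT and FGF pathways 16 were hosts (45.7%, 28.8 to 63.4), at 42.9 peaks per Mb. S led them with 293, followed by the Notch receptor gene N (250 at X:3162525-3162626, with 97.1 in replicate 2 and 155 in replicate 3) and the Wnt receptor gene fz (246 at 3L:14303984-14304129, with 75.8 in replicate 2 and 173 in replicate 3). The list of tracheal and epidermal genes had 6 of 16 hosts (37.5%) at 40.8 per Mb, with 6 of its 11 peaks in shn. It was led by shn (154), the adhesion gene Fas3 (127) and grh (123), the grainyhead factor of epidermis. The genes shn, bnl, Fas3, Mef2 and cnc stand in more than one list.

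Transcription factors of the leucine zipper family, to which maf-S belongs, were hosts at 5 of 10 (50%, 18.7 to 81.3), at 53.0 peaks per Mb from 6 peaks. REPTOR, the factor held in check by TORC1, had 219 (3R:24567384-24567773, with 88.8 in replicate 2 and 128 in replicate 3). Pdp1 had 146 and vri 88.2, both factors of the circadian clock. Atf3 had 101 (X:1272851-1273240, with 34.3 in replicate 2 and 64.3 in replicate 3). cnc, the partner of maf-S, had 1 far intronic peak (3R:23211873-23212262, signal 101, rank 1825), with 42.2 in replicate 2 and 57.1 in replicate 3. Of the Fos and Jun genes, kay had a near intronic peak and no far intronic one, and Jra had no eligible sequence. Keap1, the inhibitor of Cnc, had 0.18 kb of eligible sequence and no far intronic peak. The antioxidant list had 2 hosts among 7 genes with eligible sequence (33.5 peaks per Mb from 2 peaks), cnc and Gclc, the catalytic subunit of glutathione synthesis (X:8113453-8113842, signal 138, with 50.7 in replicate 2 and 95.4 in replicate 3).

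Nuclear receptors and other ecdysone genes had 5 hosts among 18 (27.8%), at 31.8 peaks per Mb: Hr3 with 2 peaks (378, shared with CG46321, and 159), Hr4, Eip75B, ftz-f1 (99.7) and Hr96 (76.4). Eip75B held 5 far intronic peaks in 72.676 kb of eligible sequence and Eip74EF, its neighbour in the ecdysone cascade, 0 in 47.523 kb. The list called insulator and promoter factors also takes in zld and ph-p. These were its only hosts (77.6 and 75.9), 2 of 10, at 24.7 per Mb. Muscle genes had 3 of 21 (kirre, 209, Mef2, 148, and rols, 73.9) at 15.1 per Mb, with 6 of their 9 peaks in kirre. Midgut, fat body and haemocyte genes had 2 of 14 (ush, 197, and Mef2) at 42.6 per Mb, with 6 of their 8 peaks in ush. Hox and segmentation genes had 2 of 16, Antp (111) and cad (110), at 15.7 per Mb, with 4 of their 5 peaks in Antp.

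Neural genes, whose lists had the highest medians of eligible sequence per gene (31.6 kb for axon guidance and neural adhesion and 22.7 kb for ion channels and receptors), held few peaks for their length. Density fell with distance from a start site over all far intronic peaks, and the lists were not matched for distance. Axon guidance and neural adhesion genes were hosts at 10 of 35 (28.6%), but with 12 peaks in 1.64 Mb their density was 7.32 per Mb, under the 12.2 of all coding genes. Fas3 (127), the midline repellent gene sli (119) and the netrin receptor gene fra (115) led them. Ion channel and receptor genes had a single host among 31, the channel gene Ih (signal 104), in 0.844 Mb of eligible sequence, 1.18 per Mb. No cytosolic ribosome gene of the 92 listed had any eligible sequence.

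**Figure D3:**
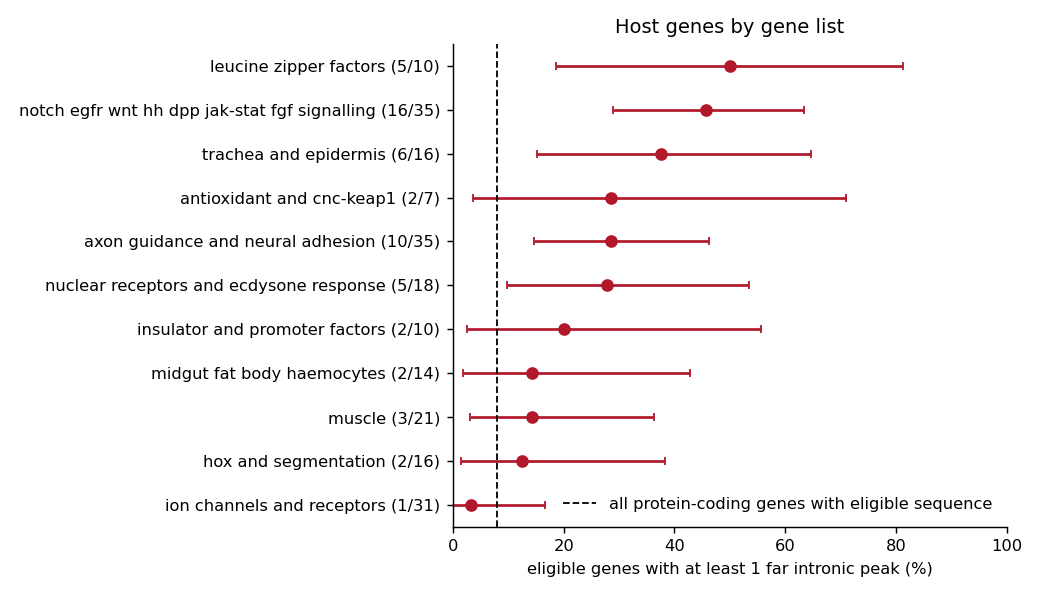
Share of genes with at least 1 far intronic peak in each gene list shown (points, exact 95% interval, hosts and eligible genes in brackets), among genes with eligible sequence; the dashed line is the 7.95% of all protein-coding genes. Leucine zipper factors (50%) and signalling genes (45.7%) stand at the top and ion channels (3.23%) at the bottom; the genes of the lists differ in intron length.

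Known binding sequences were sought in windows of 100 bp to each side of the 504 summits. They were compared with 897 windows of the same width centred 1 kb up- and downstream that touched neither an exon nor a thresholded peak, for 36 sequences, on both strands. Fisher's exact test with Benjamini-Hochberg adjustment called 1 of 36 sequences higher than flanks (2.78%) and 1 lower (2.78%). The one called higher was CTATTTA, a form of the A+T-rich site of the muscle factor Mef2. It was in 54 far intronic windows (10.7%) and 42 flanks (4.68%), an odds ratio of 2.44 (1.57 to 3.81, Fisher adjusted p = 0.00130), and in 4.33% of the points over eligible sequence. The odds ratio was 2.06 within strata of GC content and 2.13, no longer past the threshold, in windows of 50 bp to each side (Fisher adjusted p = 0.0653). In the 1602 strongest peaks it was 2.37 (Fisher adjusted p = 0.0853). The median signal was 114 where CTATTTA was present and 102 where it was absent. The strongest were in CG32486, CG34417, S, aos and the second peak of Raf (signals 566, 298, 293, 284 and 259).

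GCCATT, the core of the site of the Polycomb group protein Pho, was the sequence called lower, with 47 far intronic windows (9.33%) and 146 flanks (16.3%). Its odds ratio was 0.529 (0.365 to 0.757, Fisher adjusted p = 0.00475), and 15.7% of points held it. Without replicate 3 it was 0.610 (Fisher adjusted p = 0.0532), in the 1602 strongest peaks 0.885 (Fisher adjusted p = 1), and with flanks at 1500 bp 0.616 (Fisher adjusted p = 0.127). AGGTGGC, a CTCF-like sequence, was in 17 windows (3.37%), 11 flanks (1.23%) and 1.84% of points, an odds ratio of 2.81 (1.23 to 6.69), which did not pass adjustment (Fisher adjusted p = 0.104). Its strongest holders were S (293), Oatp30B (222), simj (191), lncRNA:CR44357 (159) and Spn (114). GGTCACAC, part of the core promoter element motif 1, was in 2 windows, in hth and tna, and 1 flank.

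No excess of the Cnc-Maf or the AP-1 sequence was detected at these summits. A sequence for maf-S paired with itself was not among the known sequences sought, so its presence was not tested. The Cnc-Maf sequence, A or G followed by TGACNNNGC, was in 8 far intronic windows (1.59%) and 26 flanks (2.90%), an odds ratio of 0.541 (0.210 to 1.24, Fisher adjusted p = 0.504), and in 2.71% of points. The odds ratio moved with the width of the window, to 0.911 with 200 bp to each side and 0.237 with 50 bp, neither past the threshold. The 5 strongest peaks holding it were in Raf (211), CG6959 (174), CG46467 (132), sbb (122) and chrb (99.7), and 2 further ones in ush (98.9) and shn (75.4) lay in hosts of many peaks. The AP-1 sequence of Fos and Jun dimers (TGACTCA) was in 15 windows (2.98%), 27 flanks (3.01%) and 1.76% of points, an odds ratio of 0.988 (Fisher adjusted p = 1). Its strongest holders were osp (240), lncRNA:CR44320 (236), Pp2C1 (164), B4 (160) and ed (122). Promoter peaks held the Cnc-Maf sequence at 3.44% (odds ratio of far intronic peaks 0.453, Fisher adjusted p = 0.0868, and 0.925 in windows of 200 bp to each side).

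The elements of housekeeping promoters were seldom found at far intronic peaks. Against promoter peaks 2 of 36 sequences were called higher (5.56%) and 6 lower (16.7%). TATCGATA, the DNA replication-related element DRE, was in 2 far intronic windows, in bif and lncRNA:CR44357, and in 178 of 1889 promoter windows (0.397% against 9.42%, and 0.429% of points), an odds ratio of 0.0383 (0.00459 to 0.141, Fisher adjusted p = 2.41e-15). The shorter ATCGATA was in 1.98% against 17.5%, and CGATA, the core of BEAF sites, in 23.2% against 41.7% and in 4146 of the 20743 points (odds ratio 0.423, Fisher adjusted p = 1.04e-13). GGTCACAC was in 0.397% against 5.77% and in 0.284% of points (odds ratio 0.0651, Fisher adjusted p = 1.31e-08). The E-box forms CAGCTG (6.35% against 13.8%, points 7.12%) and CAGCTGTT (1.39% against 6.46%, points 1.05%) were the other 2 called lower. At none of these 6 was the share in far intronic windows different from flanks past the threshold. CTATTTA was higher at far intronic than at promoter peaks (10.7% against 6.88%, odds ratio 1.62, Fisher adjusted p = 0.0276), and so was a run of 8 A (91 of 504 against 227 of 1889 windows, points 12.7%, odds ratio 1.61, Fisher adjusted p = 0.00334). The CTATTTA call was lost in windows of 50 bp (Fisher adjusted p = 0.0514) and of 200 bp to each side (odds ratio 1.29, Fisher adjusted p = 0.220), with protein-coding genes only (odds ratio 1.49, Fisher adjusted p = 0.0849) and with transposable elements kept among the genes (odds ratio 1.57, Fisher adjusted p = 0.0565). Against far intergenic peaks Fisher's exact test called 0 sequences in either direction (0%), and 3 had an unadjusted p under 0.05. They were CTATTTA (10.7% against 3.49%, odds ratio 3.32, 1.39 to 9.61, Fisher adjusted p = 0.105), the run of 8 A and CAGCTG.

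**Figure D4:**
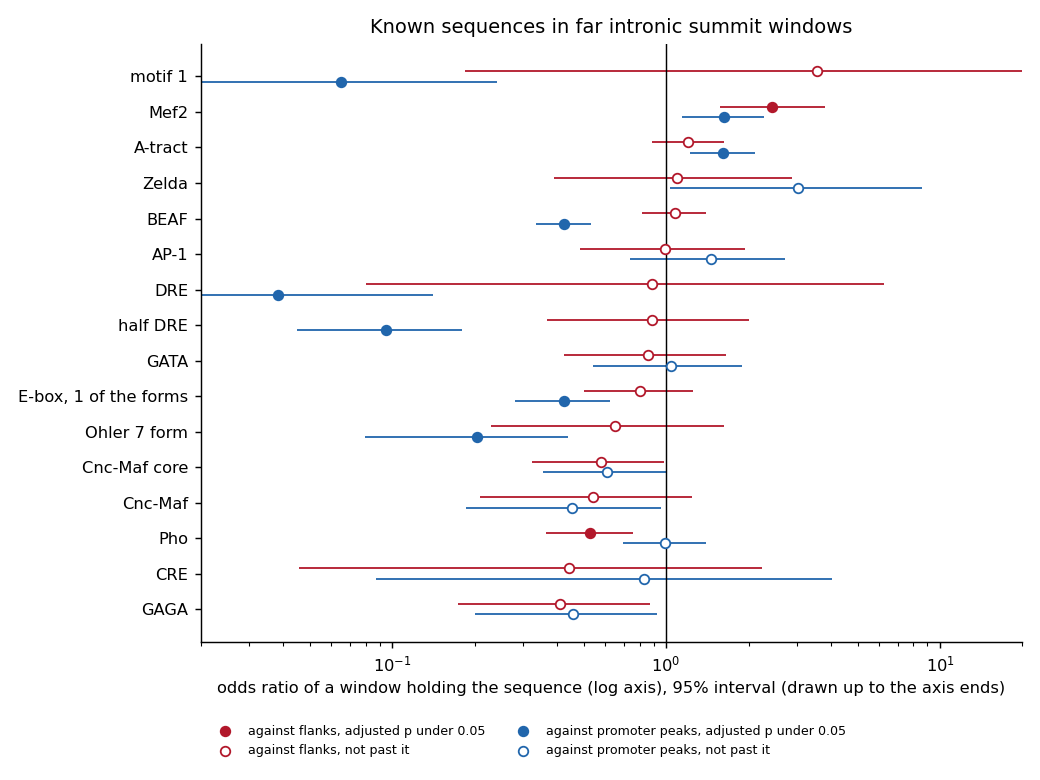
Odds ratio (log axis, 95% interval) that a far intronic summit window holds a known sequence, for 16 of the 36, against flanks 1 kb away (red) and against promoter peaks (blue), filled where the adjusted p was under 0.05. CTATTTA (Mef2, 2.44) is the filled red point above 1 and GCCATT (Pho, 0.529) the one below, and the DRE (0.0383) and motif 1 (0.0651) lie far below 1 against promoter peaks.

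An open search over all 2080 words of 6 bp, both strands joined, called 72 higher (3.46%) and 38 lower (1.83%) in far intronic windows than in flanks. Of the 72, 31 held at most 1 G or C and 6 held CAGTG or its complement, and the mean GC content of the 72 was 29.4%, against 65.4% for the 38 lower words. The windows themselves were poorer in GC than their flanks (36.8% against 39.9%). The 6 words with the smallest p were AGTGTA (103 windows, 20.4%, and 67 flanks, 7.47%, with 7.61% of points, odds ratio 3.18, 2.26 to 4.50, Fisher adjusted p = 7.47e-09), CACTGA (19.6% against 7.13%), ACAGTG (22.2% against 8.92%), ACACTG (20.2% against 7.69%), GTGCAC (12.1% against 3.01%) and CAGTGC (18.1% against 7.02%). Their odds ratios ran from 2.91 to 4.43. Most of the 6 hold CAGTG or its complement, and words that overlap are not independent. The number of words called depended on the setting and was 63 without replicate 3, 173 without replicate 2 and 11 in the 1602 strongest peaks.

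At least 1 of these 6 words stood in 300 of the 504 windows (59.5%) and in 255 of the 897 flanks (28.4%), values that their choice fixes in part. Far intronic windows held 3 or more at 81 peaks (16.1%), against 2.56% of flanks. In classes of peaks that did not enter the choice the share with at least 1 was 56.4% at near intronic, 52.0% at promoter and 62.8% at far intergenic peaks, against 28.4% of points over eligible sequence. Median signal was 98.9 at the 204 peaks with none, 105.0 at the 142 with 1, 104.5 at the 77 with 2 and 104.0 at the 54 with 3. It was 111 at the 25 with 4 and 158 at the 2 with 5, so it did not rise from 1 to 3 words.

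Words of 8 bp were searched after the 6-bp words had been seen. Fisher's exact test called 23 of 32896 higher than flanks (0.0699%) and 0 lower (0%). At an unadjusted p under 0.05 there were 879 higher and 246 lower. An 8-bp word is rare in windows of this width, so few could be called lower. CACTGAGA was in 33 far intronic windows (6.55%) and 3 flanks (0.334%), an odds ratio of 20.8, and TACACTGA in 29 (5.75%) and 2 (0.223%), an odds ratio of 27.3 (Fisher adjusted p = 7.73e-08 and 2.65e-07). AGAGAAAA (7.54% against 1.11%) and GAGAAAAA (8.93% against 1.78%) came next. Of the 23 words 13 held CAGTG or CACTG. CACTGAGA did not pass the threshold with soft-masked bases blanked, where its odds ratio was 19.99 (Fisher adjusted p = 0.249), while TACACTGA did, with 39.0 (Fisher adjusted p = 0.000174). The number of 8-bp words called was 22 without replicate 2, 13 without replicate 3, 1 in the 1602 strongest peaks, 0 and 36 in windows of 50 and 200 bp to each side, 14 with flanks at 1500 bp and 8 with soft-masked bases blanked. Against promoter peaks 16 of the words were higher (0.0486%) and 24 lower (0.073%). Of those 16, 6 were also among the 23 called over flanks, CACTGAGA (6.55% against 1.85%, odds ratio 3.71, 2.21 to 6.22, Fisher adjusted p = 0.000941) and TACACTGA (5.75% against 1.80%, odds ratio 3.33, 1.94 to 5.69, Fisher adjusted p = 0.00873) included. Against far intergenic peaks 0 were called in either direction (0%) by Fisher's exact test, with 44 higher and 342 lower at an unadjusted p under 0.05. With only 172 far intergenic windows few words could pass, so the 0 is no sign of likeness. CGATAATA, in 10 of 504 far intronic and 0 of 172 far intergenic windows, had an unadjusted Fisher p of 0.0725. For rare words, the unequal numbers of windows make a low p harder to reach for higher than for lower words. Far intergenic peaks held CACTGAGA at 8.72% and TACACTGA at 9.30%.

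The 6 words and the base composition were unevenly placed around the summit. The share of far intronic peaks with a word in a given 20-bp bin was 6.15% to 7.14% within 20 bp of the summit. From 60 to 120 bp away it lay between 6.35% and 12.9%, and from 200 to 500 bp it averaged 3.47%. The words stood more often to the sides of the summit than on it. At promoter peaks the same bins gave 7.50% at the summit, 6.60% at 60 to 120 bp and 4.25% beyond 200 bp, with no dip in the middle. Near intronic (5.64%, 9.14% and 3.72%) and far intergenic peaks (7.56%, 10.2% and 3.62%) also had their highest share at 60 to 120 bp. GC content at far intronic peaks was lowest at the summit, 34.1% in 21-bp windows, and averaged 40.2% at 60 to 120 bp and 43.0% at 200 to 500 bp. At promoter peaks the summit had 38.2% within 20 bp and 38.2% at 60 to 120 bp. The part of base composition in the word counts was not tested.

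**Figure D5:**
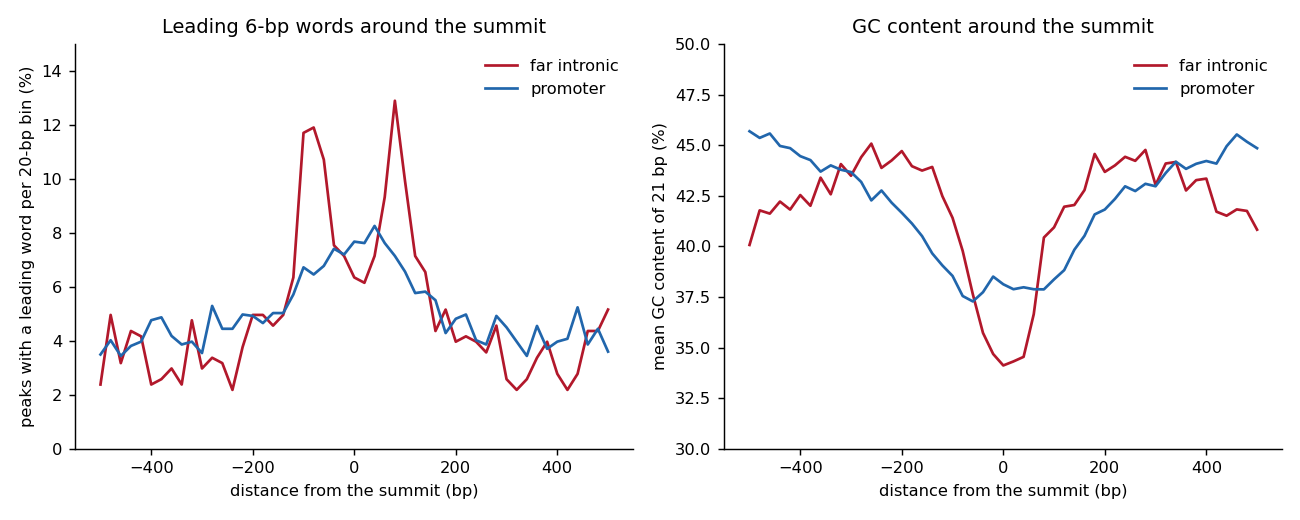
Left, share of peaks with any of the 6 leading words in each 20-bp bin around the summit, for far intronic (red) and promoter peaks (blue); the red line has 2 maxima, at 80 bp to either side, the higher at 12.9%. Right, mean GC content of 21-bp windows at the same offsets; far intronic peaks have their minimum, 34.1%, at the summit and promoter peaks a wider and shallower one.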

How the data were processed

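Binding of maf-S-eGFP was measured by anti-GFP ChIP-seq in 2 biological replicates of 1 group. Chromatin was sonicated to 200 to 800 bp, per the labels. The authors deposited lists of peaks on dm6, called per replicate and on the pooled replicates with a control library as input, per the text deposited with them, and a thresholded list, whose 3205 rows are those with the highest signal among the pooled ones. Each row holds an interval, a summit, a signal value and a −log10 q-value, as deposited by the authors; the signal was used to describe and rank within a list and the q-value was not used. The names of the lists give IDR, a measure of agreement between replicates, as the method of thresholding. For aligner, peak caller, value of the threshold and depth, none is given in the sources used here. The dm3 lists were not used here.

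Genes were those of Ensembl release 115 on 6 chromosome arms without transposable elements (18164 genes, 13945 protein-coding), and sequence that of RefSeq Release 6. Coordinates are 1-based. The host is the protein-coding gene whose span holds the summit, the smallest where several do, or another gene where none does. Shares have exact (Clopper-Pearson) 95% intervals, and a count of 0 allows up to 3. Two-sided Fisher's exact tests, with Benjamini-Hochberg adjustment over the family named and a threshold of 0.05, compare peaks or windows of the same libraries, so p-values cover counting over peaks and not the spread between embryos. Alternatives changed the distance limit, annotation, list, summit match, window, flanks and GC strata. Python 3.11.15, numpy 2.4.6, scipy 1.17.1, pandas 2.3.3 and statsmodels 0.14.6 were used.

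The members, gene lists and sequences were chosen with earlier results of these data known. Named are hosts of the 15 strongest peaks, hosts of most peaks, up to 3 hosts of highest signal per list, hosts of the 5 strongest peaks with the Cnc-Maf, AP-1 and most enriched panel sequences, the peaks nearest to the distance limit, and cnc, Keap1, kay, Jra, Atf3, ush, Eip74EF and Eip75B in any case. The genes bif, tna, tara, mew, CG31871 and eff, the 8-bp words, the layout around the summit and the longer windows printed were chosen after seeing the data. The result of 1 gene list is not reported here.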

Additional observations from a re-analysis of the deposited data

How the results depend on the processing

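Samples could not be paired because the series has 1 group. Flanks lie 1 kb from their own summits, but Fisher's exact test treated all windows as independent and this pairing was not used. Far intronic peaks numbered 493 without replicate 3 and 521 without replicate 2, 234 over 5000 bp from a start site, and 219 among the 1602 strongest peaks. Odds ratios of being above the median ran from 0.619 to 0.829 without 1 replicate against all other peaks (0.805 with protein-coding genes only) and from 0.676 to 0.713 against near intronic peaks. Against near intronic peaks they passed the threshold also in the 1602 strongest peaks (0.521) and for the upper quartile (0.553). Against far intergenic peaks the direction was not stable: 0.783 in the 1602 strongest peaks, 0.907 for the upper quartile, and 0.936 to 1.52 without 1 replicate.

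For the top of replicate 2 the odds ratio against all other peaks was 0.450 in the 1602 strongest peaks, 0.705 with summits within 300 bp and 0.752 without replicate 2, all past the threshold. Against promoter peaks it was 0.385 in the 1602 strongest peaks, 0.697 within 75 bp, 0.593 within 300 bp and 0.663 without replicate 2. Against far intergenic peaks it reversed to 0.615 in the 1602 strongest peaks. For the top of replicate 3, where no comparison passed the threshold, reversals were 0.919, 0.845 and 0.907 without replicate 3 (all other, near intronic and promoter peaks). Others were 0.962 (transposable elements kept in), 0.514 (1602 strongest peaks) and 0.959 (300 bp) against near intronic peaks and 1.96 (1602 strongest peaks) against far intergenic peaks. A replicate's own top gives no value for its own list.

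Words of 6 bp called against flanks numbered 110 in the main setting, 11 in the 1602 strongest peaks, 52 and 54 in windows of 50 and 200 bp to each side, 220 with flanks at 500 bp, 175 with flanks anywhere, and 63 to 173 without 1 replicate. Words of 8 bp numbered 23 and, with soft-masked bases blanked, 8. Panel sequences called against flanks numbered 2, then 0 in the 1602 strongest peaks, 4 in windows of 200 bp, 5 and 1 with flanks at 500 and 1500 bp, and 4 within GC strata. Against far intergenic peaks they numbered 1 with protein-coding genes only, 1 in the 1602 strongest peaks and 2 in windows of 200 bp. Against promoter peaks they numbered 13 in windows of 200 bp, 7 of them higher. The AP-1 odds ratio against flanks lay on either side of 1: 1.12 with protein-coding genes only, 1.48 in windows of 50 bp, 1.49 with flanks at 500 bp, 1.07 with flanks anywhere, 1.00 within GC strata, 1.04 with soft-masked bases blanked, and 0.736 to 1.13 without 1 replicate. The cause of these changes was not tested. Depth is unknown.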

Other observations

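The letters CACTG and their complement CAGTG were not placed evenly around far intronic summits. Read on the plus strand and 40 to 130 bp from the summit, CACTG stood before it at 111 of 504 peaks (22.0%) and after it at 80 (15.9%), while CAGTG stood before it at 75 (14.9%) and after it at 111 (22.0%). At near intronic peaks the order was the other way round, with CACTG before the summit at 17.6% and after it at 20.1%. CAGTG stood before it there at 18.3% and after it at 15.3%. Promoter peaks had the near intronic order, with CACTG at 12.3% before and 14.98% after, and CAGTG at 13.6% and 13.2%. Far intergenic peaks had the far intronic order, with CACTG at 19.8% before and 13.4% after, and CAGTG at 10.5% and 28.5%. A pair with CACTG before and CAGTG after the summit, an inverted repeat around it, was present at 46 far intronic peaks (9.13%), with a median spacing of 155.5 bp (quartiles 144 and 171.5). The share was 5.19% at near intronic, 2.38% at promoter and 11.6% at far intergenic peaks. The median spacing in these classes was 157, 171 and 166 bp, and the range of positions searched limits it in every class. These positions were looked at after the words had been seen and no test was made of them.

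The leading words differed in how often they lay in soft-masked sequence. Of 33 matches of CACTGAGA in far intronic windows 22 were soft-masked (66.7%), against 5 of 29 for TACACTGA (17.2%) and 2 of 137 for ACAGTG (1.46%). Soft-masked bases made up 19.1% of far intronic windows and 19.2% of flanks. With these bases blanked CACTGAGA had an odds ratio of 19.99, no longer past the threshold (Fisher adjusted p = 0.249), and the odds ratio of TACACTGA was 39.0 (Fisher adjusted p = 0.000174).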
